A study of Mus musculus with 2 samples.

Results

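A set of 9 transcription factor genes that pattern the distal limb bud, Msx1, Msx2, Lhx2, Lhx9, Lmx1b, Sall1, Sall3, Sall4 and Alx4, was followed in RNA-seq of mouse distal forelimbs. They were taken by gene symbol from the deposited transcript table, where these 9 genes, out of 23157, were represented by 22 of 64053 transcripts, and all 9 passed the filter on low values used below. The study compared E12.5 embryos of the strain label C57Bl6CBAF1. Of 2 libraries, 1 came from wild-type distal forelimbs and 1 from distal forelimbs carrying HoxD Inv(TpSB1-Itga6), an allele in which 2.4 Mb of chromosome 2 is inverted so that regulatory islands I and II, digit enhancers of the HoxD locus, are moved away from Hoxd13. The wild-type sample is titled wtFL and the other invDFL, while the label of the wild-type values reads wtDFL. Distal forelimbs are the tissue that the study's methods name for RNA-seq. According to the methods of the study, inversion embryos were homozygous, and the series design gives 3 pairs of forelimbs for the dissection. A library is therefore a pool of whole tissue, and there is 1 library per genotype, so that no difference below has a replicate check.

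Outgrowth and patterning of the autopod, the future hand, depend on signals from the ectoderm and its apical ridge that are read by transcription factors of the mesenchyme. Msx1 and Msx2 encode homeodomain repressors induced by BMP signals in distal mesenchyme and ectoderm. Lhx2, Lhx9 and Lmx1b encode LIM homeodomain proteins. The first pair acts in distal mesenchyme under the ridge, and LMX1B gives the dorsal side of the limb its identity downstream of WNT7A. Sall1, Sall3 and Sall4 encode zinc finger proteins, and heterozygous loss of SALL1 or SALL4 in humans causes syndromes with limb malformations. Alx4 encodes a paired-type homeodomain protein of the anterior mesenchyme, and its loss in mice gives extra anterior digits.

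The 2 libraries held 9280660 reads (wild type) and 9466154 reads (inversion), recovered as whole numbers from the deposited values. A normalized read is a read scaled by the library factor of the authors, and a log2 ratio is that of inversion over wild type with a pseudocount of 1. Each ratio has a 95% interval derived by the Clopper-Pearson method (exact binomial) from how a gene's reads split between both libraries. Such an interval holds counting error alone and speaks of this pair of libraries rather than of the genotypes. As a check of the tissue, the distal genes Hoxa13 (1084 and 1208 reads in wild type and inversion) and Hoxd13 (2264 and 1522 reads) were counted in both libraries, as were the 5 proximal genes Irx3 (120 and 90 reads), Irx5 (217 and 182), Meis1 (144 and 134), Meis2 (515 and 417) and Shox2 (376 and 724). The summed log2 ratio of the proximal genes was 0.14 (0.03 to 0.24), with 4 of the 5 below 0 and Shox2 at 0.91. Genes that mark embryo sex differed: Xist had 2607 reads in wild type against 13 in the inversion, and each of 4 Y-linked genes was higher in the inversion by 2-fold or more. Wild type was not without Y-linked reads: Ddx3y had 282 and 790, Kdm5d 270 and 909, Uty 140 and 516, and Eif2s3y 134 and 605. The wild-type pool thus held reads of both sexes. Sex and genotype cannot be told apart for any value below. Nor can fewer cells of a type be told apart from less RNA per cell.

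The paralogues were separable by sequence at the read length of 100 bases. In the leading transcript of each of the 9 genes, 0 of the 100-base windows occurred unchanged on the same strand in a GENCODE M21 transcript of another gene. On the other strand, 194 of the 4974 windows of Sall4 (3.90%) were shared with Gm14261, which had 3 reads in wild type against 4 in the inversion, and no window of the other 8 genes was shared. The most alike coding windows of the homeobox pair Msx1 and Msx2 and of the LIM homeobox pair Lhx2 and Lhx9 show how far a single read can tell them apart, with differing bases in capitals. The Msx1 window lies in exon 2 of 2 (GRCm38 chr5:37821511-37821610, minus strand) and the Msx2 window in exon 2 of 2 (chr13:53468404-53468503, minus strand), and they differ at 14 of 100 bases.
Msx1: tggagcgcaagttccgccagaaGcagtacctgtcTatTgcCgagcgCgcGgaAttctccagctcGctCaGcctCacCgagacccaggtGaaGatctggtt
Msx2: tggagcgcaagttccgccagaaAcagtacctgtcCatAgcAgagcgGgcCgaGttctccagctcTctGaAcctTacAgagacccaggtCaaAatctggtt
The Lhx2 window (chr2:38353482-38354516, plus strand) and the Lhx9 window (chr1:138838631-138839904, minus strand) each join exons 2 and 3 of 5, so that the genomic span includes an intron, and they differ at 16 of 100 bases.
Lhx2: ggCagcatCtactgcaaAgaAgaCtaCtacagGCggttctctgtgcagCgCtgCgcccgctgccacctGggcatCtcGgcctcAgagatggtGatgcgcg
Lhx9: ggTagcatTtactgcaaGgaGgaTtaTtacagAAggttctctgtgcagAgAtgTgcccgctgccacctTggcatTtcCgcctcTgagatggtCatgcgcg
Reads with mismatches were not examined, as the deposited table holds no reads.

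As a set, the 9 genes were nearly level between the libraries, with 8917 reads in wild type against 9037 in the inversion. Their median log2 ratio was -0.06, beside -0.02 over the 16756 genes that averaged 10 or more normalized reads. Of the 9, only Sall3 exceeded wild type by 2-fold or more, and 0 fell short of it by as much. Among all genes tested, 3.99% were higher and 0.483% lower by 2-fold or more. Genes with few reads weigh in these shares. Of the 11831 genes averaging 100 or more normalized reads, 139 were higher and 12 lower. In that range lie 8 of the 9 genes, Sall3 among them. The interval lay above 0 for Sall3, Alx4 and Sall1 (16.7% of all genes) and below 0 for Lhx2 and Msx1 (13% of all genes). It included 0 for the other 4 genes. These 5 of 9 genes compare with 32.5% of the 13399 genes averaging 50 or more normalized reads, a range in which all 9 genes lie. The other 8 genes differed by at most 1.35-fold.

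**Figure D1:**
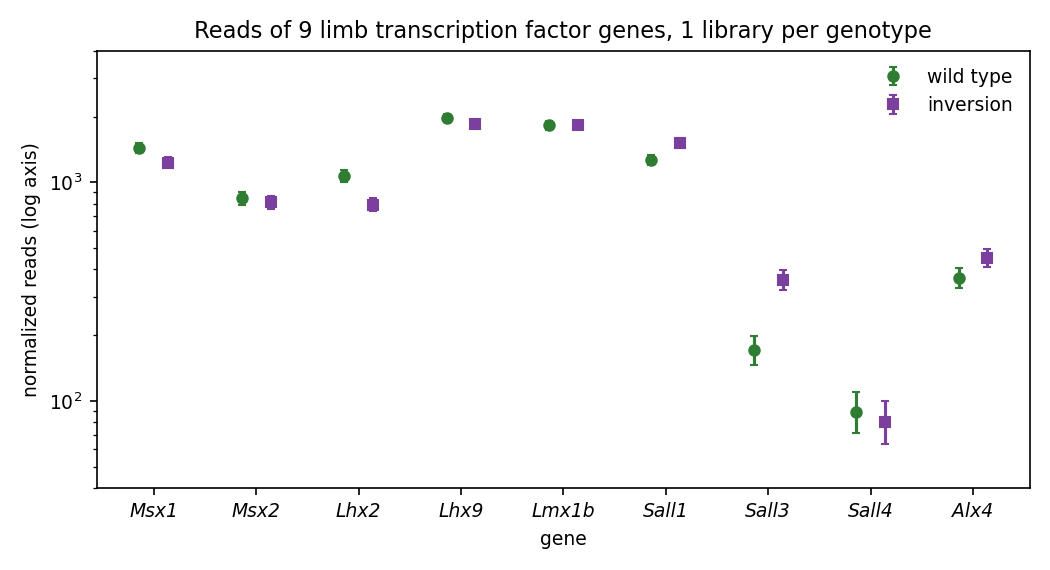
Normalized reads (log axis) of the 9 genes in the wild-type library (circles) and the inversion library (squares), with exact 95% Poisson intervals of the reads as bars (counting error only). The 2 libraries lie clearly apart for Sall3 (170.1 and 357.5) and closest together for Lmx1b (1823 and 1835).

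**Figure D2:**
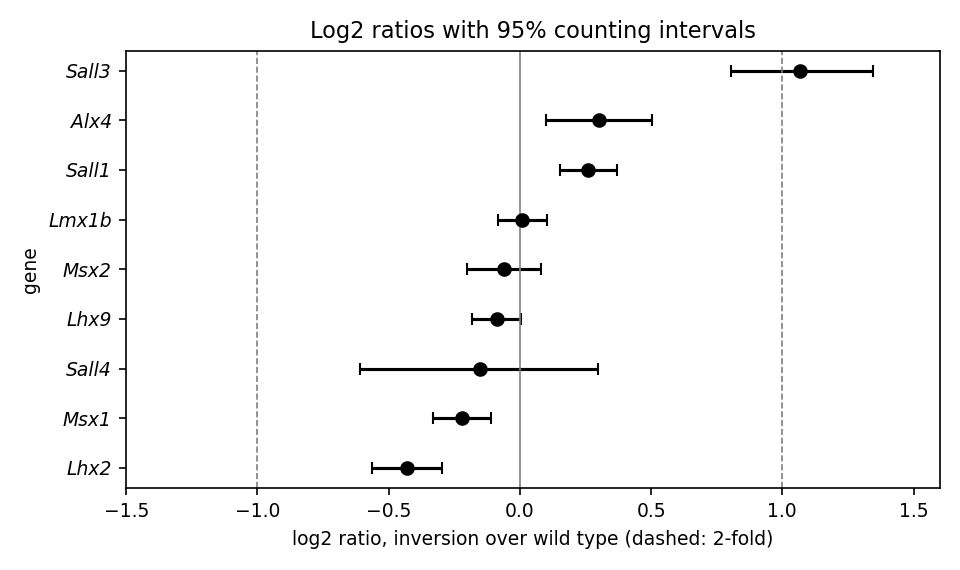
Log2 ratio of inversion over wild type for the 9 genes, ordered by value, with 95% counting intervals as bars. The dashed lines mark a 2-fold difference, which only Sall3 (1.07) reached, with an interval that starts below the line at 0.80.

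Msx1 (chromosome 5, 37820485 to 37824583) was counted at 1437 normalized reads in wild type against 1232 in the inversion. Its log2 ratio was -0.22 (95% interval -0.33 to -0.11), a level 0.858 times that of wild type. Msx2 (chromosome 13, 53466884 to 53473074) had 845.5 and 810.8 normalized reads, a log2 ratio of -0.06 with an interval of -0.20 to 0.08. Msx1 was thus lower in the inversion beyond counting error, while for Msx2 no difference was detectable at this depth. Their balance, which does not depend on library scaling, was 0.588 reads of Msx2 per read of Msx1 in wild type and 0.658 in the inversion. The ratio of these ratios was 1.12 (exact conditional 95% interval 0.987 to 1.27), so that unequal behaviour of the pair was not resolved. Each gene had 1 transcript in the table, of 1935 nt for Msx1 and 2453 nt for Msx2.

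Lhx2 (chromosome 2, 38339281 to 38369733) had the lowest log2 ratio of the 9 genes. With 1065 normalized reads in wild type against 791.0 in the inversion, it had a log2 ratio of -0.43 (-0.56 to -0.30) or 0.743 times the wild-type level. Of all genes tested, 3.68% were at or below that value. Lhx9 (chromosome 1, 138825186 to 138848577), which shares functions with Lhx2 in limb outgrowth, had 1966 and 1850 normalized reads. Its log2 ratio of -0.09 had an interval of -0.18 to 0.0041 that just includes 0. The pair shifted in balance, from 1.85 reads of Lhx9 per read of Lhx2 in wild type to 2.34 in the inversion, a ratio of ratios of 1.27 (1.13 to 1.42). The value for Lmx1b (chromosome 2, 33560965 to 33640511) was almost the same in both libraries, with 1823 and 1835 normalized reads and a log2 ratio of 0.01 (-0.08 to 0.10). The interval of Lmx1b therefore leaves room for a difference of no more than 1.07-fold in the upward direction by counting error.

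Each of the 3 transcripts of Lhx2 had fewer reads in the inversion library. The main one (ENSMUST00000000253, 2840 nt) had 835 reads in wild type against 649 in the inversion, ENSMUST00000133661 had 143 and 96, and the retained-intron transcript ENSMUST00000149664 had 74 and 56. The last 2 begin upstream of the main start and together took 20.6% of the Lhx2 reads in wild type (Clopper-Pearson interval 18.2% to 23.2%) and 19.0% in the inversion (16.3% to 21.9%), shares that overlap. The interval of the log2 ratio included 0 for the retained-intron transcript (-0.97 to 0.08). Both upstream transcripts run into the span of the main one, and how reads were divided between them is not known. These counts therefore cannot tell whether both starts were lower.

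The promoters of the 2 genes with intervals below 0 are shown as the 250 bases before a RefSeq start (GRCm38.p6), with GC boxes (GGGCGG, on either strand) in capitals. For Lhx2 the window is that of the upstream start, chr2:38339031-38339280 on the plus strand. For Msx1 it is chr5:37824586-37824835, gene on the minus strand.
Lhx2: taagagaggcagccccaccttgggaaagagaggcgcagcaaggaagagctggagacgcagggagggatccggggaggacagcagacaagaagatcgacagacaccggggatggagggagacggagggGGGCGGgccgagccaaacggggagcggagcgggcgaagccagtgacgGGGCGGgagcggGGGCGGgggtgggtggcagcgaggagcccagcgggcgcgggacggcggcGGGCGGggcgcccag
Msx1: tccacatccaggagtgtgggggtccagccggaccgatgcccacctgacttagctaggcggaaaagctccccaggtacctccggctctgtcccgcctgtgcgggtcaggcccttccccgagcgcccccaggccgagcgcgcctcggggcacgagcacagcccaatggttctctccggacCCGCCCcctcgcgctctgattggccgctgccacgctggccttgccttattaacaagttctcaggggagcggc
This upstream Lhx2 window holds 4 GC boxes and 25 CpG dinucleotides and the Msx1 window 1 GC box and 20 CpG. The window before the other RefSeq start of Lhx2 (chr2:38351058-38351307) holds 0 GC boxes and 24 CpG. It lies downstream of the annotated start of the main transcript (38350759), and the bases before that start were not examined. These counts stand beside a median of 6 CpG over 32851 promoter windows, of which 32.7% hold a GC box. Windows were found for 6 of the 9 genes (9 windows). None of the 9 held the HOX13-type letters CAATAAA on either strand (4.20% of all windows do) or a TATA box spelled TATAAA on either strand (12.4% of all windows). These matches describe letters and not binding.

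Sall3 (chromosome 18, 80966376 to 80986771) went from 168 to 362 reads, or from 170.1 to 357.5 normalized reads. Its log2 ratio was 1.07 (0.80 to 1.34), a ratio of 2.10 with an interval of 1.75 to 2.54, and 3.52% of all genes tested were at or above that value. Sall1 (chromosome 8, 89027235 to 89044162), the most counted of these 3 genes, had 1268 and 1518 normalized reads, a log2 ratio of 0.26 (0.15 to 0.37). Sall4 (chromosome 2, 168748332 to 168767943) had only 88 and 81 reads, and its log2 ratio of -0.15 had an interval from -0.61 to 0.30, so that a difference was not detectable at this depth. Sall3 and Sall1 were both above wild type, and Sall3 by more. The ratio of Sall3 to Sall1 reads was 0.134 in wild type and 0.236 in the inversion, a ratio of ratios of 1.76 (1.44 to 2.15). For Sall4 against Sall1 it was 0.750 (0.542 to 1.04), and for Sall4 against Sall3 it was 0.427 (0.296 to 0.618). In terms of all reads of the 3 genes, Sall3 took 11.1% in wild type (9.60% to 12.8%) and 18.3% in the inversion (16.6% to 20.1%), while Sall1 took 83.0% (81.0% to 84.9%) and 77.6% (75.7% to 79.4%). Each of Sall1 and Sall3 had 1 transcript in the table.

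Among the 6 transcripts of Sall4, the full-length ENSMUST00000029061 (5073 nt) had 70 reads in wild type against 52 in the inversion, 79.5% (69.6% to 87.4%) and 64.2% (52.8% to 74.6%) of the gene's reads. The shorter ENSMUST00000103074, which lacks 1332 of the 2367 bases of exon 2, had 5 and 20 reads. This second transcript was singled out after its values were seen, and its share of 5.68% in wild type (1.87% to 12.8%) and 24.7% in the inversion (15.8% to 35.5%) is a description of 25 reads in all. The intervals for the leading transcript of Sall4 overlap between the libraries, as they do for Lhx2, Lhx9, Lmx1b and Alx4. Over 9143 genes with at least 2 transcripts and 50 reads in each library, 11.2% had intervals for the leading transcript that did not overlap. How the authors divided reads between transcripts of a gene is not given in the sources used here.

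Alx4 (chromosome 2, 93642384 to 93681339) was counted at 365.5 normalized reads in wild type against 450.3 in the inversion, a log2 ratio of 0.30 (0.10 to 0.50). Its 2 transcripts, whose starts lie 4 bases apart and whose ends coincide, had 182 and 179 reads in wild type and 228 each in the inversion. Their log2 ratios were 0.29 and 0.31. How reads were divided between them is not known, so they are not separate observations. If reads were counted on both, the interval of the gene is too narrow. The leading transcript alone had an interval of 0.0016 to 0.58. For Lhx9, by contrast, 1 of 5 transcripts was seen in a single library. The transcript ENSMUST00000093486, singled out after its values were seen, had 17 reads in wild type but 0 in the inversion. Its share was 0.875% of the gene's reads (0.511% to 1.40%) against at most 0.197% by the same 95% interval. The share over all genes given above covers leading transcripts only. The leading ENSMUST00000019374 had 1203 and 1164 reads, or 61.9% and 62.1% of the gene's reads.

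**Figure D3:**
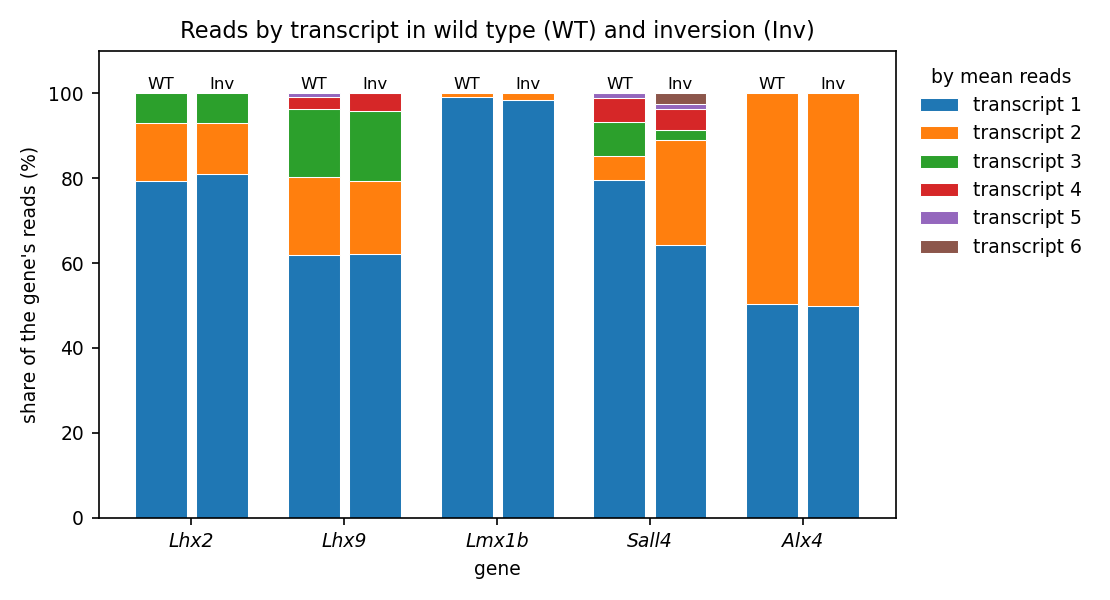
Share (%) of each gene's reads on its transcripts in the wild-type library (WT) and the inversion library (Inv), for the 5 genes with more than 1 transcript; colours rank the transcripts of each gene by mean reads. The bars of Lhx2, Lhx9, Lmx1b and Alx4 look alike in both libraries, while transcript 2 of Sall4 takes 5.68% in wild type and 24.7% in the inversion.

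Of the 9 genes, 4 lie on chromosome 2, the chromosome of the inversion, and none lies inside the rearranged segment. Taking Itga6 and Hoxd13 as landmarks of its 2 sides (71745616 and 74671599 on GRCm38), Lhx2 lies 33.4 Mb and Lmx1b 38.1 Mb from Itga6, and Alx4 19.0 Mb and Sall4 94.1 Mb from Hoxd13. In this order their log2 ratios were -0.43, 0.01, 0.30 and -0.15, so that no common direction was seen along the chromosome. The median over the 1403 genes of chromosome 2 that passed the filter was -0.02, as over all genes. Sall3, with the highest log2 ratio of the set, is on another chromosome.

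Within a library, genes were ordered by normalized reads per kb, each transcript being divided by its own length. In wild type the order was Msx1 (743), Lhx2 (626), Lhx9 (480), Lmx1b (411), Msx2 (345), Sall1 (241), Alx4 (60.8), Sall4 (42.3) and Sall3 (24.0). With the Poisson interval of each gene's summed reads scaled to its level, no neighbours in this order overlapped. Such an interval is too narrow where few reads on a short transcript weigh heavily. This holds for Sall4, with 7 wild-type reads on the 393-nt transcript ENSMUST00000150588, so that its separation from Alx4 and Sall3 is not resolved. In the inversion library Msx1 was again first (637 per kb), followed by Lhx9 (450), Lhx2 (450) and Lmx1b (434), and the intervals of Lhx9 and Lhx2 and of Lhx2 and Lmx1b overlapped. The last 2 places were exchanged, with Sall3 at 50.5 and Sall4 at 28.7 per kb. The per-kb levels of Lhx2 and Sall4 in wild type depend on short transcripts: with the longest transcript as the only length they were 375 and 17.6 per kb, which puts Lhx2 below Lhx9 (387) and Lmx1b (381) and Sall4 below Sall3. In wild type 94.5% of 16215 genes had a lower level per kb than Msx1, and 17.6% a lower one than Sall3.

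**Figure D4:**
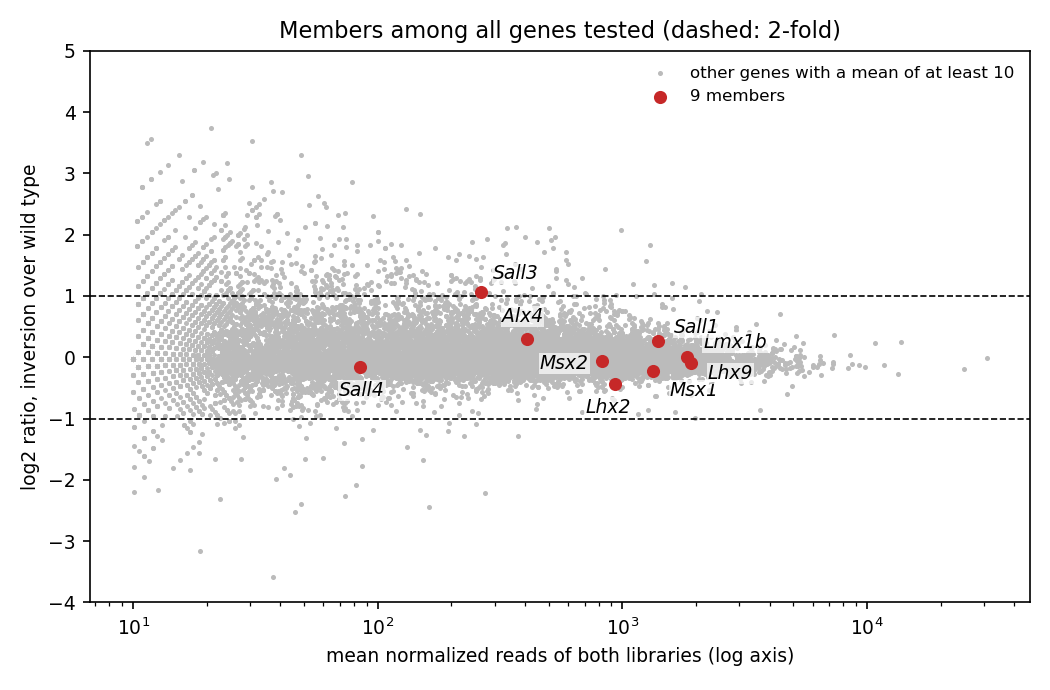
Log2 ratio of inversion over wild type against mean normalized reads (log axis) for the 9 genes (large points) and all other genes averaging 10 or more (small points); 3 genes fall outside the vertical range. Sall3 lies just above the upper 2-fold line, and the other 8 genes lie within the band around 0 between -0.43 and 0.30.

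The other genes of these families and pathways were read from lists of relatives, partners and acting signals. Of 15 relatives, 12 were found and 9 passed the filter. The median of their log2 ratios was 0.05. The 2 most counted, Prrx1 (-0.02, interval -0.08 to 0.05), a general marker of limb mesenchyme, and Sall2 (-0.09, -0.19 to 0.01), were level within counting error. Only Lhx8 and Alx1 passed 2-fold, both upward and with few reads. Lhx8 had 5 reads in wild type against 45 in the inversion, a ratio of 8.78 (3.50 to 28.3). Alx1, a relative of Alx4, had 12 and 32 reads, a ratio of 2.60 (1.30 to 5.55). No relative was 2-fold lower.

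Of the 10 partners of LIM homeodomain proteins, 0 reached 2-fold in either direction, and the median was 0.05. Intervals lay above 0 for 5 and below 0 for 1 (16.7% and 13% of all genes). The cofactor gene Ldb1 had 1867 and 2135 normalized reads (log2 ratio 0.19, interval 0.10 to 0.28), and Ssbp3, which encodes a protein that binds LDB1, had 2029 and 2172 (0.10, 0.0099 to 0.19). Among 13 subunits of NuRD, the histone deacetylase complex that SALL proteins bind, 0 reached 2-fold, with a median of -0.07. Intervals lay below 0 for 5 and above 0 for 1 (13% and 16.7% of all genes). Intervals narrow as reads rise, and 32.5% of genes averaging 50 or more normalized reads had one that left out 0. The remodeller genes Chd3 (-0.17, -0.22 to -0.13) and Chd4 (-0.11, -0.16 to -0.06) were both lower. The exception above 0 was Hdac1, named after its value was seen, at 0.54 (0.29 to 0.79).

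Of 12 signals and regulators that act with the 9 genes, 0 reached 2-fold, and the median was -0.14. Intervals lay below 0 for 5 and above 0 for 2 (13% and 16.7% of all genes). The most counted were Gli3, a regulator of digit number, at -0.27 (-0.35 to -0.20), and Tbx5, the forelimb T-box gene upstream of Sall4, at 0.20 (0.11 to 0.30). A few more were named after their values were seen. The ligand genes Bmp2 (-0.39, -0.55 to -0.23) and Bmp7 (-0.33, -0.45 to -0.21), which induce Msx genes, were lower in the inversion, whereas the interval of Bmp4 (-0.10, -0.27 to 0.08) included 0. Msx1 was at -0.22 and Msx2 at -0.06. Fgf10, the mesenchymal FGF of limb outgrowth, was at -0.26 (-0.42 to -0.10). For Wnt7a, the dorsal ectoderm signal upstream of Lmx1b, the log2 ratio was -0.28 (-0.52 to -0.05) while Lmx1b itself was at 0.01. Not all of the list was lower, as 5 of its log2 ratios were above 0 and 7 below. Besides Tbx5, the interval above 0 was that of En1 (0.34, 0.0013 to 0.68). Grem1 (0.16, -0.14 to 0.46), Hand2 (0.13, -0.01 to 0.26) and Zbtb16 (0.07, -0.44 to 0.59) were positive with intervals that included 0.

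Markers of other tissues also differed between the libraries. Their interval counts stand beside 16.7% of all genes above 0 and 13% below. All 10 surface ectoderm markers were lower in the inversion library (median -0.22, 6 intervals below 0), from a summed 6674 normalized reads in wild type to 5754. This sum had a log2 ratio of -0.21. Msx1 and Msx2, both also transcribed in ectoderm, were at -0.22 and -0.06, and the interval of Msx2 included 0. All 5 ridge genes that passed the filter were also below 0 (median -0.18), but only 1 interval lay below 0 and 4 included it. Fgf4, which marks the ridge, had 1 and 3 reads. In the other direction, 4 of 7 cartilage genes had intervals above 0 and 1 below (summed log2 ratio 0.22), with Matn1 going from 100 to 331 reads. The interval below 0 was that of Sox6 (-0.24, -0.34 to -0.14), and Sox9 was at -0.09 with an interval that included 0. The summed muscle markers went from 750.3 to 1264 normalized reads (0.75), with 4 of 7 intervals above 0. Acta1 went from 64 to 199 reads and Pax7 from 7 to 36. Pax3 went the other way, from 26 to 20 reads, with an interval that included 0. The summed values for cartilage and muscle were positive like those of Sall3 (1.07), Alx4 (0.30) and Sall1 (0.26). The part of these tissues in the values of the 9 genes was not tested.

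**Figure D5:**
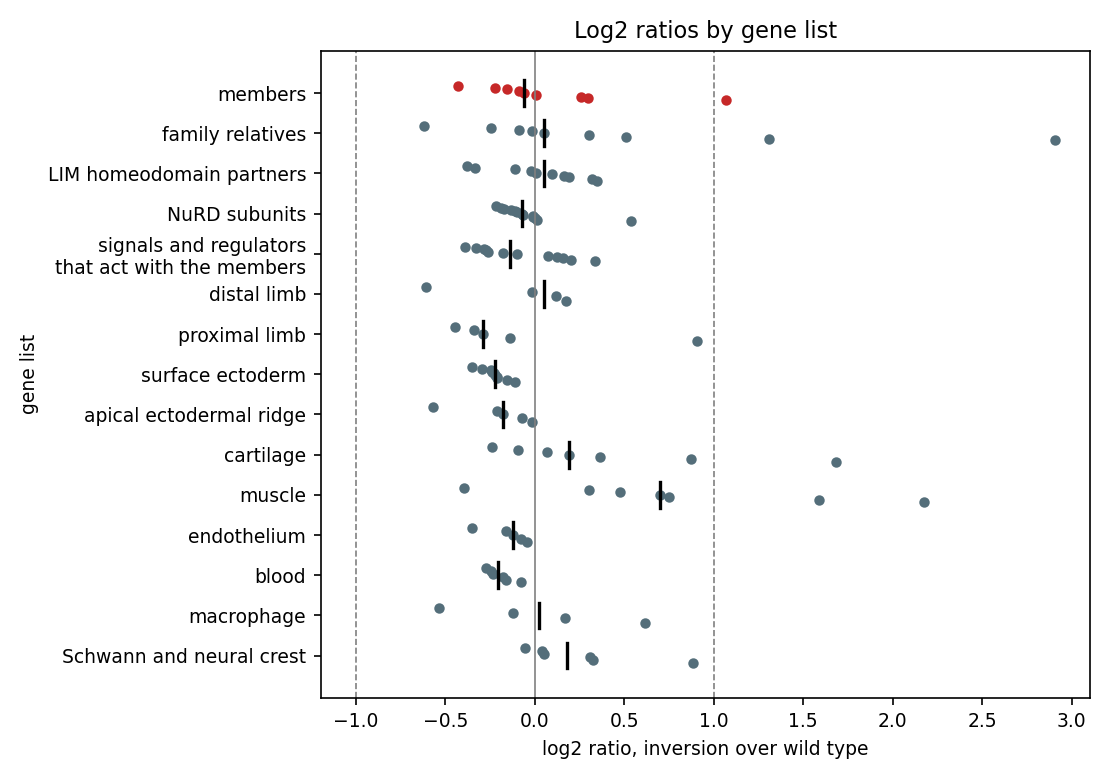
Log2 ratio of inversion over wild type for each gene with a mean of at least 10, by gene list (the embryo sex list is not drawn); points are genes, black bars are list medians and dashed lines mark 2-fold. The 9 members span -0.43 to 1.07 around a median of -0.06, surface ectoderm genes all lie below 0 (median -0.22), and the median of the muscle genes is 0.70.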

How the data were processed

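RNA-seq libraries of E12.5 distal forelimbs (TruSeq Stranded, poly(A) selection, 100-bp single-end reads) were mapped by the authors to the assembly NCBIM37 (mm9) and assigned to Ensembl transcripts in the HTSstation pipeline; the submitters' processing notes name Bowtie2. The deposited signal values are, per transcript and library, reads divided by a size factor, with 0.5 for no reads. They are not RPKM, since 100% of the values above 0.5 were whole multiples of 1 step per library (tolerance 0.05 reads). The authors' fold change, log2 fold change, p-value and adjusted p-value columns were not used. No per-sample column was left unmapped (0).

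Here, reads were recovered, 0.5 was read as 0, and the transcripts sharing a symbol and chromosome were added up to 1 gene. Log2 ratios used the authors' scaling, a pseudocount of 1 and a minimum mean of 10, and understate the change of genes with few reads. With 1 library per genotype no test was made. Paralogue balances have exact conditional intervals of the odds ratio (5 pairs). The steps were tested on simulated data. Positions, transcript types and lengths are from GENCODE M21 (GRCm38), matched by transcript identifier for 88.1% of transcripts and 21 of the 22 transcripts of the 9 genes, and promoters are from RefSeq. No coordinate was converted between builds.

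The 9 genes, the 15 other gene lists (one of them for embryo sex), the rule for named genes and the alternatives were chosen with earlier results of these data known. The rule takes the 9 genes, listed genes at least 2-fold changed with a mean of at least 10 and an interval off 0, and the 2 most counted genes of the lists of relatives, partners and signals. Alternatives were other scalings (total, upper quartile, TMM in edgeR 4.0.16, median of ratios), pseudocounts of 5 and 0.1, the transcript with the highest mean, protein-coding transcripts only, other thresholds and filters, and 99% intervals. Calculations ran in Python 3.11.15 (scipy 1.17.1, pandas 2.3.3, numpy 2.4.6), and matplotlib 3.10.9 drew the plots.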

Additional observations from a re-analysis of the deposited data

How the results depend on the processing

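No paired analysis was possible because each genotype has a single library. For the 9 genes, all 72 single log2 ratios recomputed under other scalings, pseudocounts and transcript choices stayed within their counting interval in the main setting, and none of the called ones changed sign. Sall3 ranged from 1.05 with upper quartile scaling or a pseudocount of 5 to 1.08 with median of ratios scaling. Sall4 was at -0.46 with the transcript of highest mean, against -0.15 over all its transcripts. Lhx9 joined Lhx2 and Msx1 with an interval below 0 under upper quartile or TMM scaling and with protein-coding transcripts only. Other scalings shifted the median of all genes by -0.0179 to 0.0177. At a 4-fold threshold 0 of the 9 genes were higher, and Sall3 reached only 2-fold. The counts over all genes moved with the filter. Against 668 up and 81 down by 2-fold of 16756 genes, there were 1992 up and 1089 down of 23157 without it. At a minimum mean of 100 there were 139 up and 12 down of 11831. With protein-coding transcripts only, 412 were up and 110 down. The cause was not tested beyond the genes each filter adds or removes. Depth limits Sall4, with 88 and 81 reads, and the relatives Lhx8 and Alx1.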

Other observations

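Further gene lists of the same libraries showed small values of a common sign. Over all genes, 16.7% of intervals lay above 0 and 13% below. All 6 blood genes, 4 of them globin genes, were lower in the inversion library (median -0.20, 4 intervals below 0), from a summed 26260 to 22440 normalized reads. All 5 endothelial genes were also below 0 (median -0.12), with 2 intervals below 0. The Schwann and neural crest list had a median of 0.18, with 1 of 6 intervals above 0, and the 4 macrophage genes found had a median of 0.03.

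Of the 5 proximal limb genes (median -0.29), the interval lay below 0 for 2 and above 0 for Shox2 (0.73 to 1.09), which was named after its value was seen. Of the 4 distal limb genes found, 2 had intervals above 0 and 1, Hoxd13, below 0.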
